A study of Mus musculus with 107 samples.

Results

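Hc is the mouse gene for complement component C5, and its transcript was followed across the livers of an F2 cross between C57BL/6J and DBA/2J mice. The gene was taken as the probe annotated Hc, which is 1 of 12314 genes measured. The array carried 1 probe for it, with a value on every array used and none at the limit of the scale. The mice were F2 females from these 2 strains, all fed an atherogenic diet, so the data hold 1 group and no mice of either parent strain or of another diet. Each mouse's liver RNA shared a 2-colour array with a pool made from equal portions of all samples, and a value here is the ratio of mouse to pool. The labels state 111 mice, the table holds 107 arrays, and 3 of these (mice 24, 55 and 91) carry no values, which left 104 mice. Genotypes of the mice were not used here, and replicates in the sense of repeated arrays of 1 mouse were not among the labels.

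C5 is a plasma protein made mainly by hepatocytes. When the complement cascade is activated it is split into C5a, a peptide that attracts and activates leukocytes through its receptor C5ar1, and C5b, which binds C6, C7, C8 and C9 to form the membrane attack complex. C57BL/6J mice make C5, whereas DBA/2J mice carry a null allele of Hc with a small deletion in the coding sequence that ends the protein early, and Hc has been studied in mouse crosses as a modifier of liver fibrosis. An F2 cross therefore holds mice with no, 1 or both copies of the null allele, and genes near Hc on chromosome 2 are inherited together with it more often than not.

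The promoter windows of Hc and of C8g are shown because these are the C5 gene and the complement gene that followed it most closely across mice. C8g codes for the gamma chain of C8 and also lies on chromosome 2. The sequences are those of RefSeq on the C57BL/6J reference GRCm38.p6, from 250 bases before the start of the gene to 50 after it, written 5′ to 3′ along the gene. They hold the reference allele, not that of any mouse in the cross. The Hc window is chr2:35061363-35061662 and the C8g window is chr2:25501670-25501969, both on the minus strand. Capitals mark matches to the motifs searched.
Hc: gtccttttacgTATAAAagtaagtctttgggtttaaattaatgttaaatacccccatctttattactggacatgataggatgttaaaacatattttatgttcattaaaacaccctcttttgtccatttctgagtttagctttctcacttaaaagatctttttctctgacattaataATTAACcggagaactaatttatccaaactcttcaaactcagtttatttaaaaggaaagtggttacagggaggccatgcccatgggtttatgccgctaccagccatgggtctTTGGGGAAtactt
C8g: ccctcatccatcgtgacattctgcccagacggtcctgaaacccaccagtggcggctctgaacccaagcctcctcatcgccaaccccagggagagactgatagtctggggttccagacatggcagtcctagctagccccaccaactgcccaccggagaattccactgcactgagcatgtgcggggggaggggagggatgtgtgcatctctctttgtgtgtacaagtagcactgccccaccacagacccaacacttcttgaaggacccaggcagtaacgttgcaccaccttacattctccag
In the Hc window, TATAAA (the letters of a TATA box) matched at base 12 on the strand shown, at position -239 from the gene start and far upstream of where a TATA box acts, GTTAAT (1 arm of the site of HNF1, a liver transcription factor) matched at base 177 on the other strand, and TTNCNNAA (a C/EBP motif) matched at base 288 on the other strand, with no overlap between them. Of 32851 mouse promoters of the same length, 13.6% held TATAAA, 7.10% held GTTAAT and 40.7% held TTNCNNAA on either strand. The STAT3 motif TTCNNNGAA, present in 8.30% of promoters, and the FOXA motif TGTTTNC, present in 20.5%, were not among the letters of the Hc window. None of the 5 motifs matched in the C8g window.

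Some arrays stood apart before any relation was read. On 18 arrays, of mice numbered 59 to 107, over 700 probes lay at the limits of the scale, and results are given for these and for the other 86 arrays where they bear on a relation. The SD of a whole array over genes ran from 0.24 to 1.41 on the log2 scale, with a median of 0.43. The mice with the 2 lowest Hc values, mice 26 and 20, had array SDs of 0.73 and 0.80, the 23rd and the 16th widest of 104, with 0 and 8 probes at the limits. These same 2 mice held the lowest 2 places of 104 in the mean level of the coagulation, hepatocyte, acute phase, complement initiation, terminal complement and complement regulator genes, and the highest 2 places for T and NK cell genes. The relations the results turn on are therefore given with and without them. The labels do not settle which way the ratios run: mouse over pool is likely from the order in the titles, and 7 of 5356 pairs of arrays correlated below -0.3. If all ratios ran the other way, every ratio below would be inverted, and no correlation would change.

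Hc varied more across the mice than most liver genes. Its log2 ratio of mouse to pool was lowest at -2.79, had a median of -0.23 and was highest at 0.94 over 104 mice, which is a ratio of 0.145 in the lowest mouse, 0.854 in the median mouse and 1.92 in the highest. The mean ratio was 0.890 ± 0.457 (SD, n = 104). From the 5th percentile (-1.79) to the 95th (0.79), the level of Hc differed 6.00-fold, and 3.89% of the 12314 genes had a wider range, the median gene spanning 1.94-fold. Its SD was 0.85 on the log2 scale, against a median of 0.34 over all genes. The fold sizes rest on reading the deposited values as log10 ratios.

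The low side was the longer one. Hc lay below the pool in 69 mice and above it in 35, more than 2-fold below in 28 mice and more than 2-fold above in 0. The skewness of the log2 ratios was -0.534. The excess kurtosis was -0.430, so the values were spread flatter than a normal curve, whereas the median gene had a kurtosis of 2.46 and 2.91% of genes were flatter than Hc. With mice 26 and 20 left out the lowest value was -2.23, the SD 0.80, the skewness -0.392 and the excess kurtosis -0.804.

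No empty interval split the mice into separate sets. The widest gap between neighbouring values inside the 5th to 95th percentiles was 0.16 log2, between -0.87 and -0.71, which is 6.06% of that range against the 15% set for separate clusters, and 31 mice lay below it. A curve of 3 normal components in the 1:2:1 proportions of an F2 cross, with a common SD and free means, put these means at -1.53 ± 0.07, -0.19 ± 0.07 and 0.54 ± 0.11 log2 (SE), or ratios of 0.347, 0.879 and 1.46, with a common SD of 0.35. The steps were 1.34 and 0.73 on the log2 scale, and 0.532 and 0.578 as ratios to the pool, so they were closer to even on the linear scale. Cut at the midpoints of these means, the mice fell into sets of 31, 46 and 27, where 1:2:1 gives 26, 52 and 26. Because the means were fitted with the 1:2:1 proportions held fixed, counts near these are partly built in and do not test the proportions. The likelihood ratio statistic over a single normal was 19.4 with free means and 4.13 with means held at equal log2 steps, and 2.11% of genes had a higher equal-step statistic than Hc. The equal-step statistic was 17.9 without mice 26 and 20. The components are a description of the shape and assign no mouse a genotype.

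**Figure D1:**
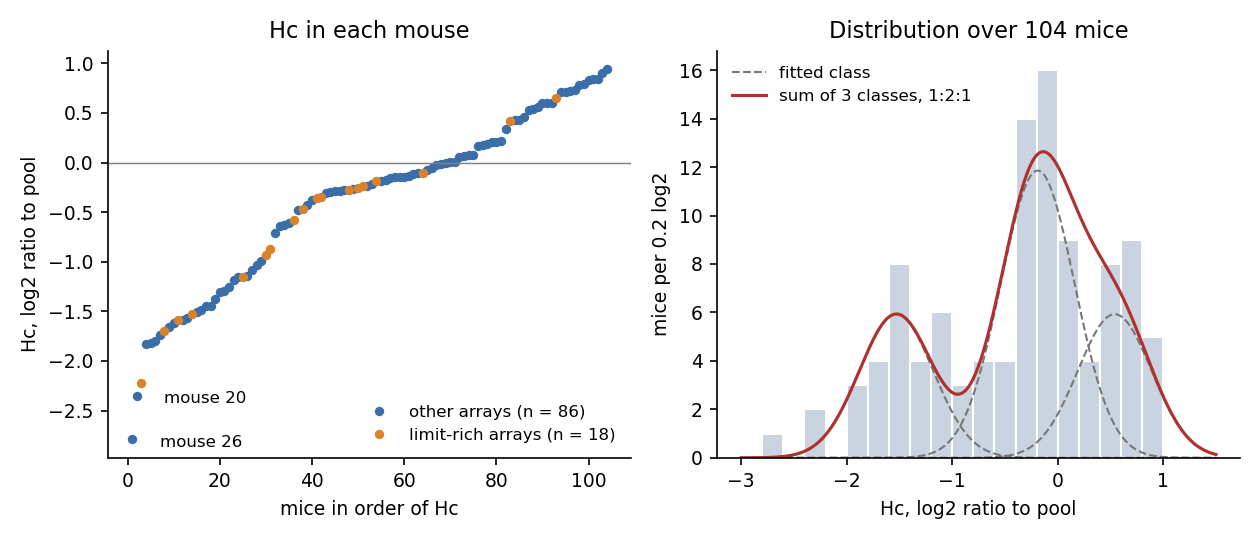
The distribution of the Hc log2 ratio of mouse to pool over 104 mice, as each mouse's value in order of Hc (left, with the 18 limit-rich and the 86 other arrays in 2 colours) and as mice per bin with the 3 fitted components (dashed) and their sum (right). The values run from -2.79 to 0.94, with the component means at -1.53, -0.19 and 0.54.

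The 86 arrays and the 18 arrays gave a like picture of Hc. Over the 86, the log2 ratio was lowest at -2.79, with a median of -0.15 and a highest value of 0.94, an SD of 0.86 and a range of 6.10-fold. Over the 18, it was lowest at -2.23, with a median of -0.41, a highest value of 0.65, an SD of 0.75 and a range of 4.67-fold. The 18 values lay inside the span of the 86.

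The slope of every gene on Hc was then fitted with limma, with Benjamini-Hochberg adjustment over 12313 genes, and a gene is said to pass where its adjusted p is under 0.05. With all 104 mice, 1785 genes passed (14.5%), of which 835 rose with Hc (6.78%) and 950 fell as Hc rose (7.72%). Without mice 26 and 20, 30 genes passed (0.244%), 12 of them positive (0.0975%) and 18 negative (0.146%), and all 30 were among the 1785. On ranks of the values over mice 252 passed (2.05%), 114 positive (0.926%) and 138 negative (1.12%). On ranks without these 2 mice 11 passed (0.0893%), 8 positive (0.0650%) and 3 negative (0.0244%). Leaving out only mouse 26 left 231 positive and 231 negative genes, and leaving out only mouse 20 left 431 and 565. Permutation tests of 100000 resamples, adjusted over the same genes, passed 1814 genes by Pearson's r and 303 by Spearman's rho. The first principal component was taken over the 10150 genes other than Hc with a value on every array. It held 19.0% of their variance and had a size of r of 0.318 with Hc. As a covariate it left 166 genes (1.35%), 96 positive (0.780%) and 70 negative (0.569%). Genes that passed with all mice, without the 2 mice and on ranks, with 1 sign, numbered 28 (0.227%), 11 positive and 17 negative.

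Of these 28 genes, 10 lay on chromosome 2, the chromosome of Hc, which is 35.7% against 7.62% of all genes tested. The 10 were Zbtb43, C8g, Rmdn3 and Neurl2, which were higher where Hc was higher, and Ntmt1, Snhg7, Dpp7, Rif1, Scn7a and Rcn1, which were lower. Chromosome 2 did not stand out with all mice, when 124 of its 938 genes passed (13.2%), against 14.8% on the other chromosomes together and 12.5% to 18.3% on each. When mice 26 and 20 were left out, 11 passed (1.17%), these 10 and Fmnl2, an actin-binding formin 17.8 Mb from Hc (r = 0.318 with all mice), against 0.172% on the other chromosomes and at most 0.495% on any of them. On ranks the shares were 2.67% on chromosome 2 and 2.03% elsewhere, with a highest of 3.44% on another chromosome. With the first principal component as a covariate they were 2.24% and 1.31%, with a highest of 2.97%. That covariate left 9 chromosome 2 genes among the 10 genes of smallest adjusted p.

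**Figure D2:**
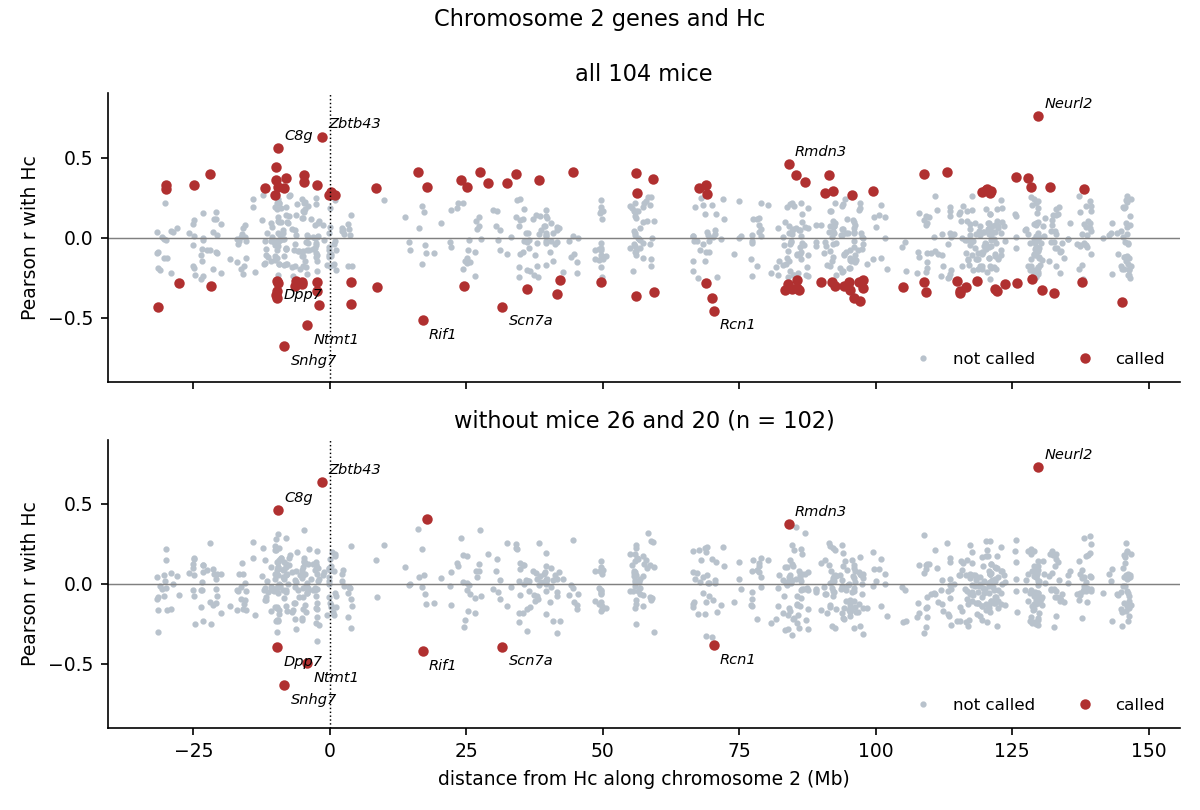
Pearson's r of each chromosome 2 gene with Hc, over all 104 mice (top) and without mice 26 and 20 (bottom), against the distance from Hc in Mb along the chromosome, with genes that passed in red. Named points are genes that passed with all mice, without the 2 mice and on ranks, from Zbtb43 at 1.51 Mb to Neurl2 at 130 Mb.

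Of the 6 measured genes nearest to Hc on each side, 12 in all, 3 passed with all mice, beside 14.5% of all genes. The 6 measured genes nearest on the lower side were Traf1, Phf19, Cutal, Fbxw2, Rabepk and Hspa5, and those on the higher side were Cntrl, Rab14, Gsn, Stom, 4930568D16Rik and 4930402F06Rik. The 3 were Cutal (r = 0.267, adjusted p = 0.0425), Stom (r = 0.287, adjusted p = 0.0286) and 4930402F06Rik (r = 0.270, adjusted p = 0.0419), by limma over 104 mice, and none of the 12 passed without mice 26 and 20, with 1 at an unadjusted p under 0.05. Traf1, a signalling adaptor of TNF receptors, had an r of -0.175, and Cntrl, a centrosome protein, of 0.0690. Within 10 Mb of Hc, 32 of 157 genes passed with all mice (beside 14.5% of all genes), 5 without the 2 mice, 10 on ranks and 7 with the first principal component. In the same order of fits, 14.5%, 0.244%, 2.05% and 1.35% of all genes passed. From 10 to 20 Mb, the counts were 5, 2, 2 and 4 of 54 genes. They were 17, 1, 4 and 0 of 127 from 20 to 40 Mb, and 15, 1, 4 and 4 of 137 from 40 to 80 Mb. Beyond 80 Mb they were 55, 2, 5 and 6 of 463.

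Zbtb43, a zinc finger protein 1.51 Mb from Hc, was the gene nearest to Hc that passed in all 3 fits. Its log2 ratio was lowest at -1.14, with a median of -0.03 and a highest value of 0.71. It rose by 0.28 ± 0.03 log2 (SE) for each log2 unit of Hc. Pearson's r was 0.630 (adjusted limma p = 2.50e-09) and rho 0.616, r was 0.635 without mice 26 and 20, and within array sets it was 0.629 over the 86 and 0.886 over the 18. Mice with low Hc therefore tended to be low in Zbtb43 on both sets of arrays.

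Snhg7, a long non-coding RNA that hosts small nucleolar RNAs, lies 8.34 Mb from Hc and ran opposite to it. Its log2 ratio was lowest at -1.02, with a median of 0.03 and a highest value of 1.41. Pearson's r was -0.678 (adjusted limma p = 1.63e-11) and rho -0.673, with r at -0.632 without the 2 mice, -0.692 over the 86 arrays and -0.525 over the 18. Ntmt1, an enzyme that methylates protein N termini, lies 4.16 Mb from Hc and had an r of -0.549 (adjusted limma p = 6.01e-06), -0.497 without the 2 mice, -0.586 over the 86 and -0.253 over the 18. Both genes tended to be higher in mice where Hc was lower.

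Neurl2, an adaptor of a ubiquitin ligase known from muscle, had the largest r of all genes although its annotated position is 130 Mb from Hc. Its values spanned little, with a log2 ratio of -0.42 in the lowest mouse, -0.01 in the median mouse and 0.43 in the highest. Its slope was 0.15 ± 0.01 (SE) and its r 0.758 (adjusted limma p = 2.86e-15), with rho at 0.721. Leaving out mice 26 and 20 gave an r of 0.727, the 86 arrays 0.829 and the 18 arrays 0.470. Among all genes, the partner of Neurl2 with the largest r after Hc was Zbtb43 (r = 0.543). Both genes were named for their relation to Hc, so their r with each other is a description. The 173 genes within 10 Mb of the annotated position of Neurl2 had a median size of r with it of 0.075 and a largest of 0.36 (Zhx3). For the 157 genes within 10 Mb of Hc, the sizes of r with Neurl2 were 0.099 and 0.54, the largest being that same Zbtb43 value. The sequence of the Neurl2 probe was not used here, so where its target lies was not tested.

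**Figure D3:**
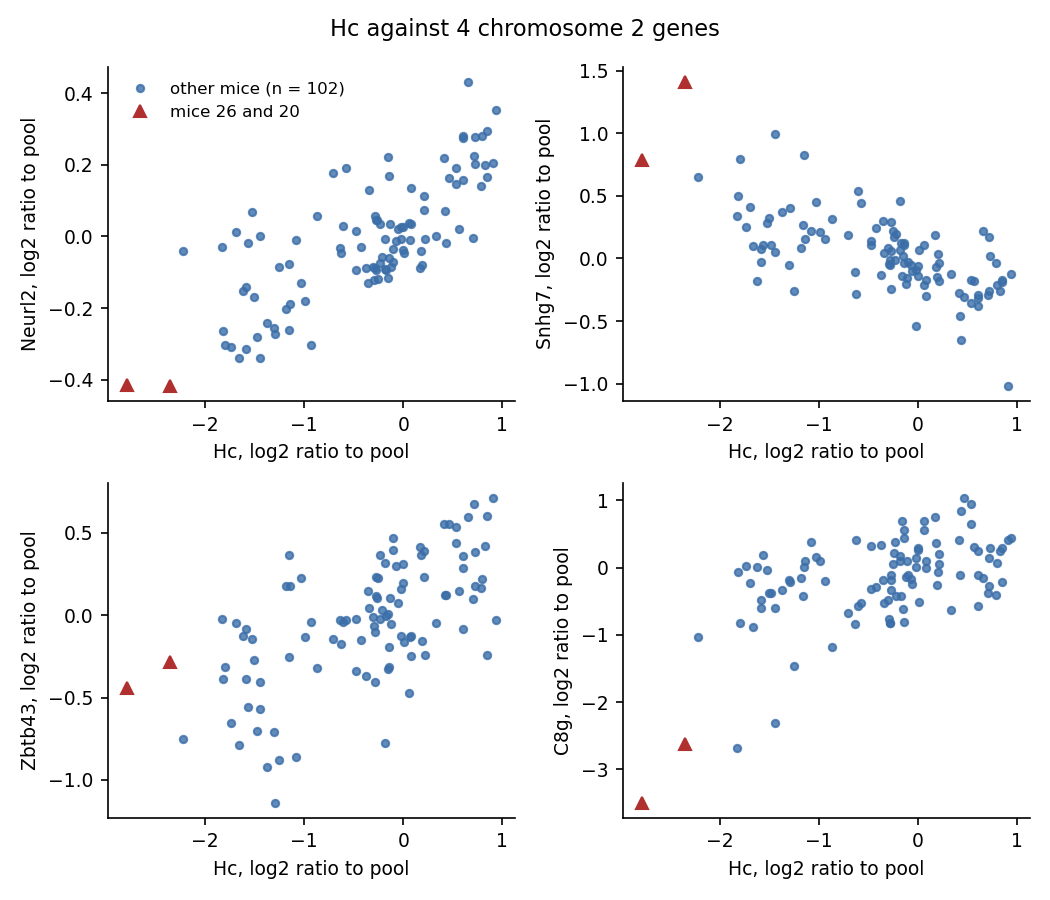
The log2 ratios to pool of Neurl2, Snhg7, Zbtb43 and C8g (y axes) against that of Hc (x axes), with 1 point per mouse and mice 26 and 20 as triangles. Neurl2 (r = 0.758), Zbtb43 (r = 0.630) and C8g (r = 0.559) run up with Hc, and Snhg7 (r = -0.678) runs down.

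The other chromosome 2 partners had smaller correlations. Rif1, a DNA repair and replication timing factor, had an r of -0.514 at 17.0 Mb and -0.422 without the 2 mice. Scn7a, a sodium channel, had an r of -0.431 (-0.393 without them), Rcn1, a calcium-binding protein of the endoplasmic reticulum, -0.457 (-0.382), and Rmdn3, a mitochondrial protein, 0.460 (0.370). Dpp7, a peptidase, had an r of -0.268 with all mice and -0.397 without the 2, and -0.186 over the 86 arrays and -0.666 over the 18. Entpd8, a nucleotidase with an r of 0.440, passed with all mice (adjusted limma p = 0.000559) but not without the 2 mice (0.131) or on ranks (0.0740). The 10 partners were also related among themselves: by permutation of Pearson's r, 35 of their 45 pairs passed. They were chosen for their relation to Hc, so this count is a description.

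C8g, the gamma chain of C8, was the complement gene most closely related to Hc. Its log2 ratio was lowest at -3.49, had a median of -0.12 and was highest at 1.03. It rose by 0.46 ± 0.07 log2 (SE) per log2 unit of Hc, with r at 0.559 (adjusted limma p = 1.39e-06) and rho at 0.477. Pearson's r was 0.459 without mice 26 and 20 (adjusted p = 0.00235), 0.572 over the 86 arrays and 0.497 over the 18. C8g lies 9.48 Mb from Hc, so that in this cross its place on the chromosome and its place in the pathway cannot be told apart.

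Of 31 measured complement genes of 43 listed, 15 passed when all mice were in the fit, all positive (48.4%, beside 6.78% positive among all genes), and 9 of the 31 had a negative r. Without mice 26 and 20, 2 of the 31 passed, C8g and C1ra, beside 0.0975% positive among all genes. On ranks 4 passed, and with arrays scaled to a common spread 9. At an unadjusted p under 0.05, 12 passed without the 2 mice, all positive.

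Among the genes that start the cascade, 7 of 11 passed with all mice, all positive (63.6%, beside 6.78% positive among all genes). Without mice 26 and 20, 1 of the 11 passed, and on ranks over all mice 3 passed. The median r of the 11 was 0.36, or 0.21 without mice 26 and 20, where that of all genes was -0.01. C1ra, a protease of the C1 complex, had an r of 0.506 (adjusted limma p = 4.39e-05), with 0.384 without the 2 mice. Masp1 and Masp2, proteases of the lectin pathway, had an r of 0.465 and 0.419, and without the 2 mice 0.354 and 0.262. Mbl1 and Mbl2, the mannose-binding lectins, had an r of 0.389 and 0.400, or 0.214 and 0.215 without them. C4b, which is cleaved in the classical and lectin pathways, had an r of 0.363, or 0.221 without them. Over the 86 arrays, which include those of mice 26 and 20, r was 0.580 for C1ra, 0.537 for Masp1 and 0.482 for C4b, and over the 18 arrays it was 0.0705, 0.0325 and -0.559.

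Of 6 listed genes for the partners of C5b in the membrane attack complex, 4 were measured, and C7 and C8a were not. All 4 passed with 104 mice, all positive, beside 6.78% positive among all genes. Beside C8g, C6 had an r of 0.341 (adjusted limma p = 0.00871), C8b of 0.324 (0.0112) and C9 of 0.294 (0.0231). None of the 3 passed without mice 26 and 20, when r was 0.228, 0.212 and 0.122, nor on ranks. Over the 18 arrays r was -0.588 for C6, -0.175 for C8b and -0.676 for C9, against 0.441, 0.411 and 0.435 over the 86. For these genes and those that start the cascade, the difference between the array sets was not tested.

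Regulators of complement, in which mice 26 and 20 were the 2 lowest of 104, passed in 4 of 9 cases with all mice, all positive (44.4%, beside 6.78% positive among all genes), and in 0 without mice 26 and 20 by limma or on ranks, with 2 at an unadjusted p under 0.05. The 5 receptors measured gave 0 passes by limma or by permutation of r or rho, and 0 at an unadjusted p under 0.05. C5ar1, the receptor of C5a, had an r of 0.0376 with Hc (95% interval -0.156 to 0.229, adjusted permutation p = 0.854), and C3ar1, the receptor of C3a, of -0.189 (-0.368 to 0.00381). The C5ar1 values spanned little, with an SD of 0.12 log2 against a median of 0.34 over all genes, which limits what its r can show. Cfb, which drives the amplification loop, had an r of 0.0320. C3 itself was not analysed here.

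Outside complement, 12 of 18 coagulation genes, which code for clotting factors and their inhibitors made in liver, passed in the same fit (66.7%, beside 6.78% positive among all genes). All 12 were positive, and the median r of the 18 was 0.39, or 0.24 without mice 26 and 20, when only F7 passed and 12 were under an unadjusted p of 0.05. F7, the protease that starts the extrinsic pathway, had an r of 0.514 (adjusted limma p = 2.83e-05) and 0.392 without the 2 mice. The largest correlations off chromosome 2 were of Mst1 (r = 0.533), a hepatocyte growth factor-like protein, Gcgr (0.519), the glucagon receptor, Proz (0.516), a cofactor that holds back coagulation, and F7. Mst1, Gcgr and Proz also passed without the 2 mice, at 0.421, 0.398 and 0.397. Of 10 hepatocyte markers 2 passed with all mice, Ttr and Hnf4a, both positive (20.0%, beside 6.78% positive among all genes). None of the 10 passed without mice 26 and 20, with 1 at an unadjusted p under 0.05. None passed on ranks or with the first principal component as a covariate. The median r of the 10 was 0.10 with all mice and -0.00 without mice 26 and 20. These 2 mice were the lowest in the mean level of the hepatocyte genes. Alb, the gene of albumin, had an r of -0.0247 (95% interval -0.216 to 0.169). In whole liver, fewer cells of a type and less RNA per cell cannot be told apart.

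Genes of inflammation passed at the rate of all genes. Of 79 measured members of 91 listed, 12 passed with 104 mice (15.2%, beside 14.5% of all genes), 9 positive and 3 negative. None passed without mice 26 and 20 in limma, with 12 at an unadjusted p under 0.05 (10 positive), and on ranks 2 passed. The split was 41 members with a positive and 38 with a negative r.

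Acute phase genes gave most of the positive ones: 6 of 19 passed positive and 1 negative (36.8%, beside 14.5% of all genes), the negative one being Cp (r = -0.310), the copper carrier ceruloplasmin. Mice 26 and 20 were the 2 lowest of 104 in these genes. Fga, Fgb and Fgg belong to both the acute phase and the coagulation lists, so the counts of these lists are not independent. Itih4, a plasma protein of the acute phase list, had an r of 0.455 (adjusted limma p = 0.000332) and 0.307 without mice 26 and 20 (adjusted p = 0.0978). Saa4, a constitutive serum amyloid A, had an r of 0.405 and 0.327 without them (adjusted p = 0.0828). Crp had an r of 0.363 and 0.241. Orm1, an acute phase glycoprotein, had an r of 0.116 (95% interval -0.0779 to 0.302) and 0.00184 without the 2 mice, and Lcn2 of -0.0971 (-0.284 to 0.0973).

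Cytokine genes passed in 3 of 22 cases, or 13.6% beside 14.5% of all genes. These were Il18 (r = 0.372) and the chemokine Cxcl9 (0.306), both positive, and the adhesion molecule Vcam1 (-0.269), negative, and none of the 3 passed without mice 26 and 20. Tnf had an r of 0.141 (95% interval -0.0588 to 0.330), Il6 of 0.186 (-0.00701 to 0.365), Il1b of 0.242 (0.0516 to 0.415) and Ccl2 of -0.147 (-0.330 to 0.0472), and none of these 4 passed. Among macrophage genes 1 of 12 passed, Clec4f, a lectin of Kupffer cells, and among T and NK cell genes 1 of 11, Cd3d, a chain of the T cell receptor complex, with a negative slope. The median r of the T and NK cell genes was -0.18, and 0.02 without mice 26 and 20, which were the 2 highest of 104 in these genes. The 10 neutrophil genes gave 0 passes by limma or permutation and 0 at an unadjusted p under 0.05, and the 6 B and plasma cell genes gave 0, with 1 at an unadjusted p under 0.05.

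The main chains of the fibrillar collagens I and III did not pass. Col1a1, a chain of type I collagen, ranged from -4.35 through a median of -0.94 to 2.65 log2 and had an r of -0.144 with Hc (95% interval -0.328 to 0.0496, adjusted permutation p = 0.345), with -0.115 without mice 26 and 20, -0.154 over the 86 arrays and -0.141 over the 18. Col1a2 had an r of -0.181 (-0.361 to 0.0121), Col3a1 of -0.151 (-0.334 to 0.0432), and Col4a1, of basement membranes, of -0.221 (-0.397 to -0.0301, adjusted permutation p = 0.108). Of 31 collagens 4 passed, Col18a1 (r = 0.442), Col5a3 (0.369) and Col23a1 (0.285) positive and Col4a5 (-0.270) negative, or 12.9% beside 14.5% of all genes. With these 2 mice left out, 0 passed in limma, with 7 at an unadjusted p under 0.05 (3 positive and 4 negative), and on ranks Col18a1 passed.

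**Figure D4:**
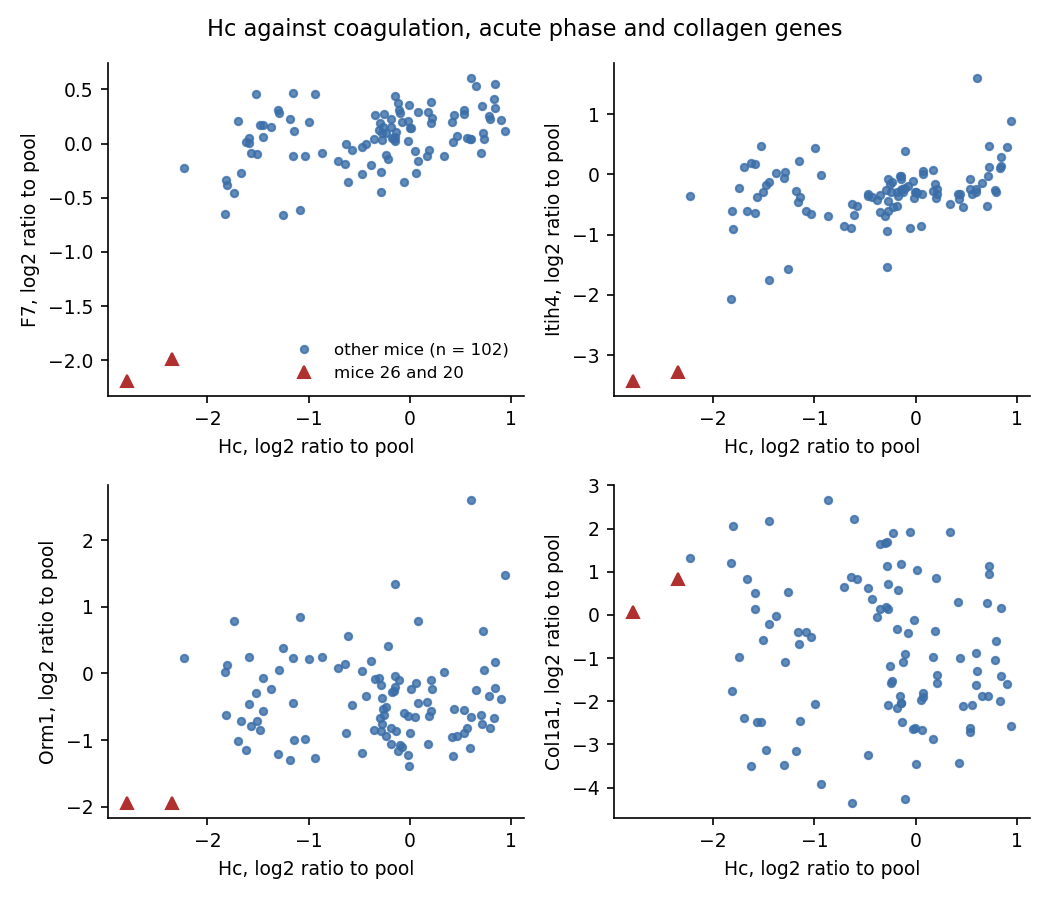
The log2 ratios to pool of F7, Itih4, Orm1 and Col1a1 (y axes) against that of Hc (x axes), with 1 point per mouse and mice 26 and 20 as triangles. Pearson's r is 0.514 for F7, 0.455 for Itih4, 0.116 for Orm1 and -0.144 for Col1a1, and mice 26 and 20 lie below all others in F7, Itih4 and Orm1.

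Genes of fibrosis and stellate cells, the collagen-making cells of the liver, leaned to negative relations. Of 29 measured, 26 had a negative r and 10 passed, all negative, beside 7.72% negative among all genes. They were Tgfb3, Timp2, Ccn2, Tgfb2, Tgfbr2, P4ha1, Mmp2, Sparc, Postn and Bgn. Tgfb3, a transforming growth factor, had an r of -0.410 (adjusted limma p = 0.00129), Timp2, an inhibitor of matrix proteases, of -0.349, and Ccn2, a matrix growth factor, of -0.348. Leaving out mice 26 and 20, these were -0.346, -0.360 and -0.286, 0 of the 29 passed in limma, and 14 had an unadjusted p under 0.05, all negative. On ranks 3 passed. With arrays scaled to a common spread, 3 of the 60 collagen and fibrosis genes passed, against 14 without scaling. With the first principal component as a covariate, the adjusted limma p of Tgfb3, Timp2 and Ccn2 was 0.112, 0.183 and 0.389. Tgfb1 (r = 0.0261), Timp1 (-0.147) and Acta2 (-0.109), markers of fibrosis or of activated stellate cells, did not pass.

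Of 7 bile duct genes, all had a negative r, from -0.28 to -0.18, and 2 passed with all mice (28.6%, beside 7.72% negative among all genes). None of the 7 passed without mice 26 and 20, with 5 at an unadjusted p under 0.05, all negative. The median r was -0.21 with all mice and -0.21 without these 2, and the median rho with all mice was -0.14. On ranks or with the first principal component as a covariate, none passed. The part of bile duct genes in the relations above was not tested. Of 6 endothelial genes and 9 genes of pancreas and muscle, 0 passed in limma or by permutation, with 1 and 0 at an unadjusted p under 0.05.

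**Figure D5:**
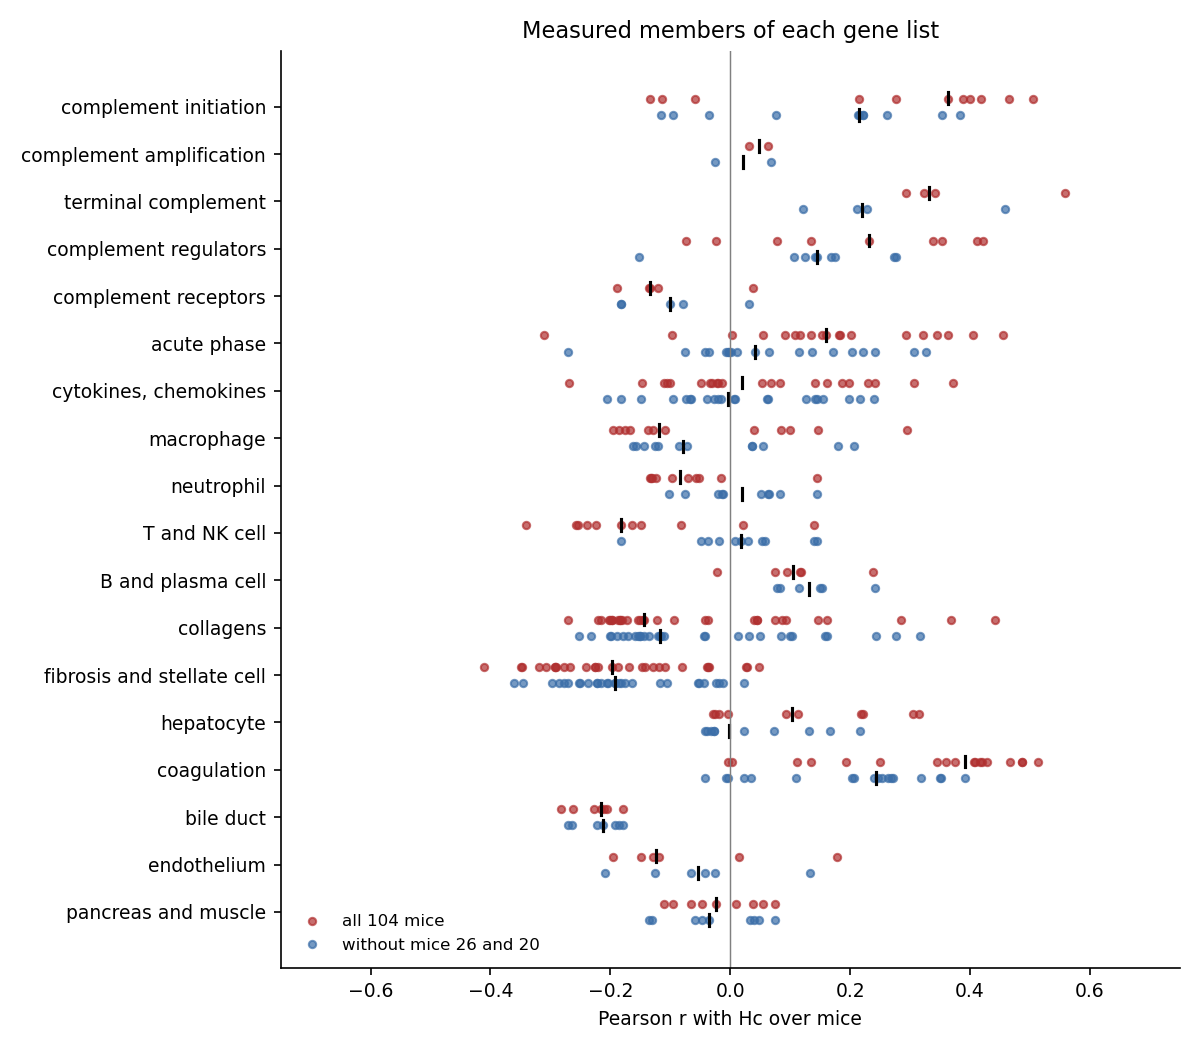
Pearson's r with Hc of each measured member of each gene list over 104 mice and without mice 26 and 20, with 1 point per gene and bars at the list medians. The median of complement initiation genes is 0.36 with all mice and 0.21 without these 2, and that of fibrosis and stellate cell genes -0.20 and -0.19.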

How the data were processed

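Liver RNA of each F2 mouse was compared with the pool on a 2-colour array. The deposited table holds 1 ratio for every probe and array, taken here as log10 of mouse over pool. Base and direction are in no label, and for dyes, background correction and normalization the authors' steps are not stated. Base 10 was chosen since the table ends sharply at -2 and 2, a 100-fold difference in that base. Array medians lay between -0.09 and 0.07 log2. Values at the limits (1.07%) were treated as not measured, 1.69% were missing, and the ratios were turned to log2. The number of arrays limits the precision.

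A value on 90% of arrays or more was required, which 20633 of 23536 probes met. The platform annotation gave 14744 probes 1 symbol, 18 several and 8774 none. Symbols were updated through the RefSeq table of assembly GRCm38.p6, which also gave distances. The 13238 named probes kept were averaged into 12314 genes, 11968 with a chromosome. Slopes on Hc were fitted with limma 3.58.1 (lmFit and eBayes, R 4.3.3), tested on simulated data. Pearson's r and Spearman's rho had two-sided permutation tests of 100000 resamples, adjusted over 12313 genes, whose smallest adjusted p is 0.00116 for r and 0.00879 for rho. The 95% intervals of r use Fisher's transformation. Python ran numpy 2.4.6, scipy 1.17.1 and pandas 2.3.3.

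Hc and the gene lists were chosen with earlier results of these data known. Named genes were the 10 of largest size of r, the 10 of largest size of r on chromosome 2, the 6 nearest to Hc on each side, the 4 of largest size of r in each list, and set genes of complement, inflammation and fibrosis. Genes named because they passed in several fits, the other passing members of short lists, and Masp2, Mbl1, C4b, Zhx3 and Entpd8 where outside that rule, were chosen after their values were seen. Alternatives were other array sets, limit values kept, stricter missing-value filter, scaled arrays, ranks, the first principal component, 1 probe a gene, and leaving out the mice of most extreme Hc.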

Additional observations from a re-analysis of the deposited data

How the results depend on the processing

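The number of arrays, their unequal spread and 2 extreme mice limit these results. All 104 mice gave 835 positive and 950 negative genes, 124 on chromosome 2, and 15 complement, 12 inflammation and 14 collagen and fibrosis genes, and 52 of the 109 genes named by rule passed. In the same order of quantities, arrays scaled to a common spread gave 270, 245, 45, 9, 4, 3 and 31, and ranks over mice 114, 138, 25, 4, 2, 4 and 22. The first principal component as a covariate gave 96, 70, 21, 3, 3, 1 and 20. Without mice 26 and 20 the counts were 12, 18, 11, 2, 0, 0 and 13. Chosen after seeing the data, ranks without these mice gave 8, 3, 7, 1, 0, 0 and 7, leaving out mouse 26 alone 231, 231, 48, 7, 4, 5 and 32, and leaving out mouse 20 alone 431, 565, 72, 11, 8, 10 and 40. The 18 limit-rich arrays alone gave 1, 0, 1, 0, 0, 0 and 1, with fewer mice. On them slopes on Hc reversed, without passing, for C4bp (-0.17), C6 (-0.10), C8b (-0.11), C9 (-0.48), Cd3d (0.12), Col23a1 (-0.06), Cpn1 (-0.02), Crp (-0.14), Cutal (-0.17), Fga (-0.09), Itih4 (-0.16), Mbl2 (-0.02), Saa4 (-0.01), Stom (-0.09) and Ttr (-0.14). Cutal also reversed on ranks without the 2 mice (-0.04). The cause of these changes was not tested. The counts moved by less than 1.5 times with the 86 arrays alone, the array set as a covariate, limit values kept, genes present on every array and 1 probe a gene. The range of Hc lay between 4.67-fold and 6.61-fold under the alternatives run. No paired analysis was possible because there was 1 group of mice.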
